A study of Mus musculus with 2 samples.

Results

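A set of 10 axon guidance genes, the ligands Slit1, Slit2, Ntn1 and Sema3e and the receptors Robo1, Robo2, Dcc, Nrp1, Nrp2 and Plxna2, were followed by cell type in the E17.5 mouse eye. They were taken by symbol, and all 10 were among the 32285 genes of the files. The study profiled single cells of eye cups from Myrf humWT/humWT and Myrf humdG/humdG embryos, with 1 library for each genotype. Both alleles carry the human last exon of MYRF in place of the mouse last exon, so the control library is humanized too. The study calls the 3′UTR of these alleles endogenous in its results and human in its methods. The humdG allele adds a C-terminal frameshift variant of MYRF, a transcription factor gene of the retinal pigment epithelium. Each library was labelled as 3 pooled eye cups, whereas the study's methods give both eyes of each of 3 mice, so the number of eyes in a pool is not settled. The labels state that cornea, lens and optic nerve had been taken off, while the study's methods leave the cornea in place, and the protocol in the labels is written for conditional KO eyes. With 1 library per genotype there was no replicate, no test and no p-value, and differences between genotypes and between preparations cannot be told apart. Intervals are 95% intervals that cover counting error only.

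Axon guidance proteins tell growing axons and migrating cells where to go. Slits are secreted and act mostly as repellents through Robo receptors. Netrin-1, the product of Ntn1, is secreted and binds Dcc, which mediates attraction, and Unc5 receptors, which mediate repulsion. Class 3 semaphorins are secreted and act through plexins, most of them together with a neuropilin, although Sema3e binds Plxnd1 directly. In the eye these cues guide retinal ganglion cell axons within the retina and out at the optic disc, and neuropilins also serve as co-receptors for VEGF in blood vessels.

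The libraries held 16128 humWT and 18140 humdG cells after filtering, with a median of 3785 and 2629 UMIs (unique molecular identifiers, which count captured transcripts) per cell. Their median was 1434 and 1197.5 genes per cell. The study reports fewer cells in each library, with more genes per cell and medians close between genotypes. The libraries shared 102 cell barcodes, of which 86 were kept in both. Cells were grouped without any of the 10 genes or the other guidance genes, into 34 clusters, of which 27 were named from marker genes as 16 classes and 7 stayed unnamed. Levels are summed UMIs of all cells in a class divided by all UMIs of that class and scaled to CPM, counts per 1000000. Red blood cell-like cells, which should make none of these genes, served as a measure of free RNA. In these cells the median depth was 3973 UMIs in humWT and 3862 UMIs in humdG. Free RNA per cell was not estimated, and classes differed in depth. Mesenchyme markers in red blood cell-like cells summed to 2907 CPM in humWT and 991 CPM in humdG, with all 10 of the markers lower in humdG, whereas the 9 retinal progenitor markers summed to 464 and 905 CPM. Myrf itself stood at 275 CPM in humWT (1233 UMIs) and 189 CPM in humdG (493 UMIs) in retinal pigment epithelium (RPE)-like cells. This method reads the 3′ end, and what the human last exon of both alleles does to these counts was not tested.

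The genes fell into 4 patterns. Slit1, Slit2, Dcc, Robo2 and Plxna2 were highest in retinal neurons or their precursors. Among named classes, by the mean of both libraries, Nrp1 and Nrp2 were highest in blood vessel endothelium-like cells and mural-like cells, the contractile cells around vessels. For Nrp1 the unnamed cluster led by Hpse2 and Kcnd2 lay between these classes. In humdG alone cartilage-like cells had the most Nrp2. Ntn1 and Robo1 were spread over mesenchyme-like cells, surface epithelium-like cells and unnamed clusters, and Sema3e stood out in cartilage-like cells. The highest named class of a gene was taken from the mean of the CPM of both libraries. Taken in each library alone, it was the same class for 7 of the 10 genes. The exceptions were Robo1, Ntn1 and Nrp2. Without cells of more than 30000 UMIs, an alternative added after the data were seen, all 10 had the same highest class.

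**Figure D1:**
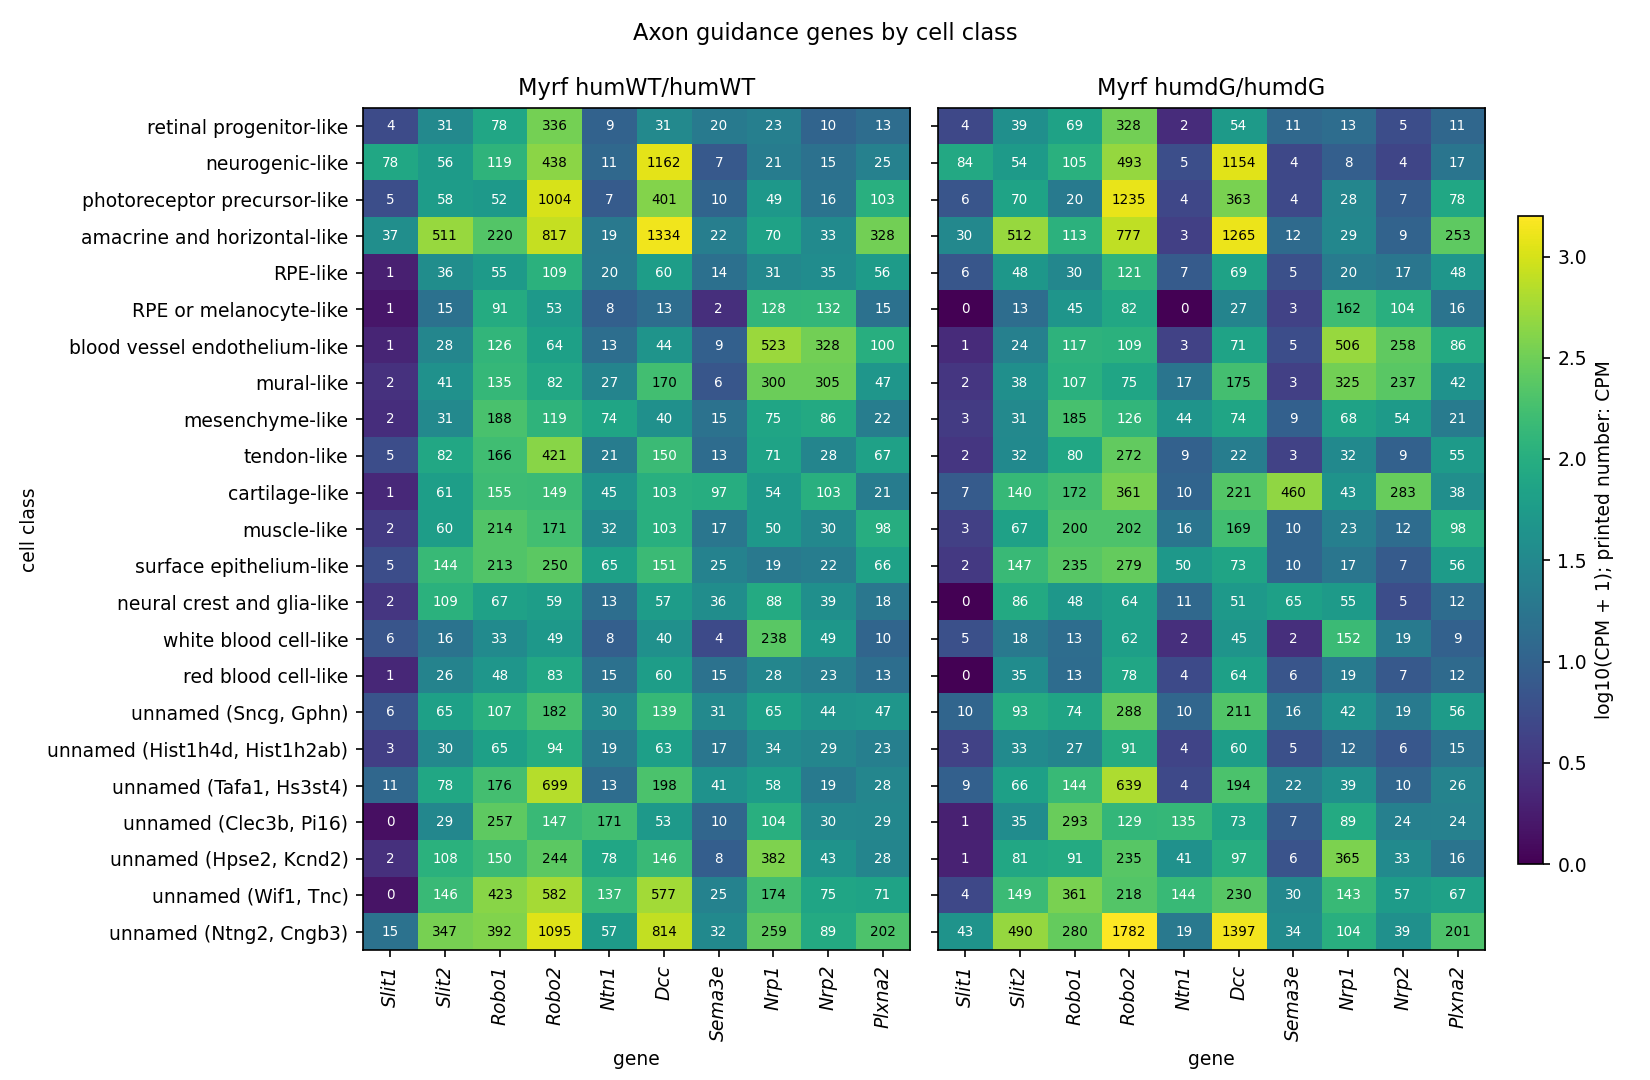
Level of each gene (columns) in each cell class (rows) in CPM, with humWT on the left and humdG on the right; colour is log10(CPM + 1) and the printed number is the CPM. Unnamed clusters carry 2 of their leading genes. Among named classes the brightest fields of Dcc and Robo2 lie in the retinal neuron rows, and Sema3e is brightest in the cartilage-like row. Those of Nrp1 and Nrp2 lie in the endothelium and mural rows, besides Nrp2 in the cartilage-like row of humdG.

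Slit1 (ENSMUSG00000025020, chromosome 19, 41600257 to 41743665, minus strand of GRCm38) encodes a secreted Slit ligand. It was highest in neurogenic-like cells, the Atoh7-expressing cells that are leaving the progenitor pool, at 78.5 CPM (291 UMIs) in humWT and 84.2 CPM (522 UMIs) in humdG. Amacrine and horizontal-like cells followed with 36.9 and 30.4 CPM, and retinal progenitor-like cells held 4.44 and 3.95 CPM. Slit1 was thus low in progenitors, highest in neurogenic-like cells and in between in the amacrine and horizontal-like class, where 141 of 152 humWT and 204 of 224 humdG UMIs came from the cluster led by Rasgef1b. Red blood cell-like cells held 3 Slit1 UMIs in humWT and 0 in humdG, where 3 counts would be 2.53 CPM. Of neurogenic-like cells thinned to 1000 UMIs, 8.44% in humWT and 7.99% in humdG had a Slit1 UMI (unthinned, 44.1% and 42.2%), with 1 humWT cell left out as too shallow. The thinned share in red blood cell-like cells was 0.191% and 0, of 523 and 270 cells, with 5 and 10 cells left out.

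Slit2 (ENSMUSG00000031558, chromosome 5, 47983138 to 48307733, plus strand) encodes another Slit ligand, with a different peak. In amacrine and horizontal-like cells it reached 511 CPM (2107 UMIs) in humWT and 512 CPM (3771 UMIs) in humdG, whereas neurogenic-like cells held 55.8 and 53.9 CPM. Its next class was surface epithelium-like cells, with 144 and 147 CPM. The Slit2 levels of the 2 libraries were nearly the same in its highest class, with a log2 ratio of humdG to humWT of 0.00 (interval -0.07 to 0.08). Clusters within the class differed in opposite directions. In the amacrine and horizontal-like cluster led by Ptf1a, a gene needed for both cell types, Slit2 was 671 CPM in humWT and 507 CPM in humdG (log2 ratio -0.41, interval -0.53 to -0.29). In the cluster led by Rasgef1b it was 450 and 551 CPM (log2 ratio 0.29, interval 0.19 to 0.40).

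The Rasgef1b cluster held 334 humWT and 573 humdG cells and was named amacrine and horizontal-like from 7 raised markers, but 4 retinal ganglion cell markers were raised in it as well. The values of the class therefore cover cells with markers of both kinds.

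Robo2 (ENSMUSG00000052516, chromosome 16, 73891839 to 74411825, minus strand) encodes a Slit receptor and was above the red blood cell-like level in all 4 named retinal classes. It was highest in photoreceptor precursor-like cells, at 1004 CPM (4397 UMIs) in humWT and 1235 CPM (5945 UMIs) in humdG, a log2 ratio of 0.30 (interval 0.24 to 0.35). Amacrine and horizontal-like cells held 817 and 777 CPM, neurogenic-like cells 438 and 493 CPM, and retinal progenitor-like cells 336 and 328 CPM. Within the amacrine and horizontal-like class the Rasgef1b cluster held 1127 and 1023 CPM of Robo2, and the Ptf1a cluster 392 and 463 CPM. Slit2 had the reverse order of these clusters in humWT only. Of photoreceptor precursor-like cells thinned to 1000 UMIs, 49.6% in humWT and 59.9% in humdG had a Robo2 UMI. In red blood cell-like cells the share was 9.37% and 9.26%. The unthinned shares were 80.6% and 85.3%, against 23.3% and 25.0%. Free RNA of Robo2 stood at 83.1 and 78.3 CPM. Levels near it outside the retina, such as 81.7 and 74.7 CPM in mural-like cells, were not above it in CPM. Mural-like cells were deeper, with a median of 14211 UMIs in humWT and 15473 UMIs in humdG. The CPM therefore cannot show how much of their Robo2 was free RNA.

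Robo1 (ENSMUSG00000022883, chromosome 16, 72308306 to 73046095, plus strand) encodes the other Robo receptor measured here and lies on the same chromosome as Robo2. Its levels were more even across classes. In surface epithelium-like cells it was 213 CPM (316 UMIs) in humWT and 235 CPM (194 UMIs) in humdG, in muscle-like cells 214 and 200 CPM, and in mesenchyme-like cells 188 and 185 CPM. In each library the 2 highest named classes had overlapping intervals, so their order was not resolved. A single cell gave 13.9% of the humWT and 15.5% of the humdG Robo1 UMIs of surface epithelium-like cells. The unnamed cluster led by Wif1 and Tnc, with 273 and 105 cells, was higher still, at 423 and 361 CPM. In amacrine and horizontal-like cells, the highest named class of humWT, Robo1 was 220 CPM in humWT and 113 CPM in humdG, a log2 ratio of -0.96 (interval -1.09 to -0.82). Photoreceptor precursor-like cells had 51.6 and 19.9 CPM, near the 47.6 and 12.6 CPM of red blood cell-like cells.

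Dcc (ENSMUSG00000060534, chromosome 18, 71253634 to 72351069, minus strand) encodes the netrin receptor. Its level separated neurons from progenitors: retinal progenitor-like cells held 31.4 CPM in humWT and 53.6 CPM in humdG, neurogenic-like cells 1162 and 1154 CPM, and amacrine and horizontal-like cells 1334 CPM (5500 UMIs) and 1265 CPM (9321 UMIs). Photoreceptor precursor-like cells were lower, at 401 and 363 CPM. Progenitors were below the red blood cell-like level of 59.7 and 64.0 CPM. They were deeper, with a median of 9479 UMIs in humWT and 9379 UMIs in humdG. The CPM therefore cannot show whether progenitors held Dcc beyond free RNA. The Ptf1a cluster of the amacrine and horizontal-like class held 2295 and 2026 CPM, and the Rasgef1b cluster 862 and 859 CPM. Of neurogenic-like cells thinned to 1000 UMIs, 45.5% in humWT and 52.5% in humdG had a Dcc UMI, and of amacrine and horizontal-like cells 49.4% and 51.7%. The share in red blood cell-like cells was 5.74% and 7.41%. Unthinned, these shares were 76.8% and 82.4%, 81.0% and 84.2%, and 15.2% and 17.1%. The log2 ratio between genotypes was -0.01 (interval -0.06 to 0.04) in neurogenic-like cells and -0.08 (interval -0.12 to -0.03) in amacrine and horizontal-like cells.

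Outside the retina Dcc was 170 and 175 CPM in mural-like cells. Dcc was higher in the unnamed cluster led by Wif1 and Tnc, given below, and in humdG also in cartilage-like cells. In surface epithelium-like cells it read 151 CPM in humWT and 72.7 CPM in humdG, but 131 of the 224 humWT UMIs came from a single cell.

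**Figure D2:**
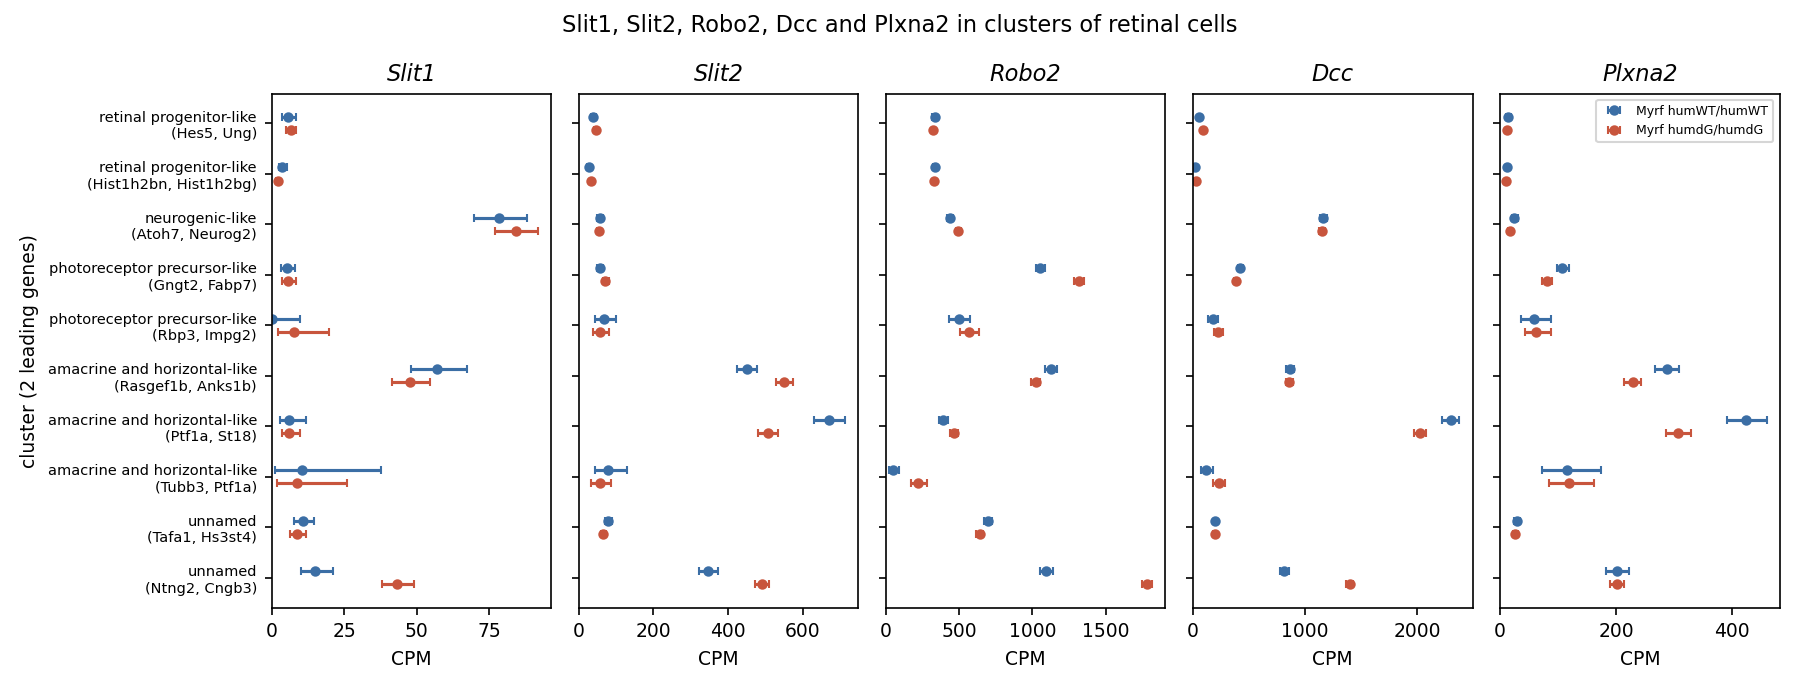
CPM of Slit1, Slit2, Robo2, Dcc and Plxna2 in clusters of retinal cells, each named with 2 leading genes; points are library sums and bars the 95% Poisson interval. Slit1 peaks in the neurogenic-like cluster at 78.5 and 84.2 CPM, whereas Slit2, Dcc and Plxna2 peak in the amacrine and horizontal-like cluster led by Ptf1a in humWT.

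Ntn1 (ENSMUSG00000020902, chromosome 11, 68209364 to 68400823, minus strand), the netrin-1 gene, was low in the named neural retina classes, at no more than 18.7 CPM in either library. It was highest in the unnamed clusters led by Clec3b and Pi16, with 171 CPM (1994 UMIs) in humWT and 135 CPM (822 UMIs) in humdG, and by Wif1 and Tnc, with 137 and 144 CPM. Among named classes, mesenchyme-like cells held 74.4 CPM (547 UMIs) in humWT and 44.3 CPM (220 UMIs) in humdG, a log2 ratio of -0.75 (interval -0.98 to -0.52). Surface epithelium-like cells held 65.4 and 49.7 CPM, of which a single cell gave 25.8% and 34.1%. The ligand and its receptor Dcc thus had different highest classes. In the eye Ntn1 is known from the optic disc, and the optic nerve had been removed. No cluster was named optic nerve head and astrocyte-like.

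Plxna2 (ENSMUSG00000026640, chromosome 1, 194618218 to 194816869, plus strand) encodes a plexin receptor for semaphorins. It was highest in amacrine and horizontal-like cells, at 328 CPM (1353 UMIs) in humWT and 253 CPM (1862 UMIs) in humdG, a log2 ratio of -0.38 (interval -0.48 to -0.27). The difference had the same direction in the Ptf1a cluster, with 425 and 307 CPM, and in the Rasgef1b cluster, with 288 and 228 CPM. The third cluster of the class, with 47 and 97 cells, held 115 and 118 CPM. Well below it, 3 classes lay close together: photoreceptor precursor-like cells with 103 and 78.5 CPM, blood vessel endothelium-like cells with 99.6 and 86.4 CPM, and muscle-like cells with 97.9 and 97.7 CPM. The second class was photoreceptor precursor-like cells in humWT and muscle-like cells in humdG. Neurogenic-like cells, at 24.5 and 16.6 CPM, were near the red blood cell-like level of 13.4 and 11.8 CPM, whereas Dcc was high there. Of amacrine and horizontal-like cells thinned to 1000 UMIs, 26.0% in humWT and 21.9% in humdG had a Plxna2 UMI (unthinned, 62.0% and 57.5%), while the share in red blood cell-like cells was 1.34% and 0.

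Nrp1 (ENSMUSG00000025810, chromosome 8, 128358604 to 128503363, plus strand) and Nrp2 (ENSMUSG00000025969, chromosome 1, 62703285 to 62818695, plus strand) encode the neuropilins, co-receptors for class 3 semaphorins and VEGF. Nrp1 in blood vessel endothelium-like cells was 523 CPM (4170 UMIs) in humWT and 506 CPM (1722 UMIs) in humdG, a log2 ratio of -0.05 (interval -0.13 to 0.03). Mural-like cells held 300 and 325 CPM, and the unnamed cluster led by Hpse2 and Kcnd2 382 and 365 CPM. In white blood cell-like cells, with macrophage markers such as C1qa and Csf1r, Nrp1 was 238 CPM in humWT and 152 CPM in humdG (log2 ratio -0.65, interval -0.86 to -0.45). In the unnamed cluster led by Ntng2 and Cngb3 it was 259 and 104 CPM. Nrp1 was thus close in the 2 libraries in vessel cells and in the Hpse2 cluster, and lower in humdG in white blood cell-like cells. It was also lower in humdG in the Ntng2 cluster, but there the sums compare cells of unlike depth. Cells above 30000 UMIs held 25.3% of the UMIs of that cluster in humWT and 74.5% in humdG.

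Nrp2 was lower in humdG in both vessel classes. Blood vessel endothelium-like cells held 328 CPM (2610 UMIs) in humWT and 258 CPM (876 UMIs) in humdG, a log2 ratio of -0.35 (interval -0.46 to -0.24). Mural-like cells held 305 and 237 CPM (log2 ratio -0.37, interval -0.45 to -0.28). In both clusters of the endothelial class the direction was the same, with 370 and 295 CPM in the deeper cluster and 108 and 82.8 CPM in the shallower, where the interval of the log2 ratio, -0.88 to 0.10, included 0. The class with the most Nrp2 in humdG was cartilage-like cells, at 283 CPM against 103 CPM in humWT. In cartilage-like cells below 5000 UMIs Nrp2 was 99.0 CPM in humWT and 95.2 CPM in humdG (log2 ratio interval -0.75 to 0.57). In those of 5000 to 30000 UMIs it was 138 and 264 CPM (log2 ratio 0.94, interval 0.42 to 1.46), so of these depth ranges the difference was seen in the deeper. The RPE or melanocyte-like cluster, whose markers tied between the names with 5 each, held 128 and 162 CPM of Nrp1 and 132 and 104 CPM of Nrp2, while RPE-like cells held 30.6 and 20.3 CPM of Nrp1, close to free RNA.

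Sema3e (ENSMUSG00000063531, chromosome 5, 14025276 to 14256689, plus strand), the ligand of Plxnd1, was highest in cartilage-like cells in both libraries. It was 96.6 CPM (355 UMIs over 1218 cells) in humWT and 460 CPM (746 UMIs over 106 cells) in humdG, a log2 ratio of 2.25 (interval 2.07 to 2.44). This value rested on few cells. Only 6 humdG cells with more than 30000 UMIs held 67.5% of all UMIs of the class, and no humWT cell of the class was as deep. Without them Sema3e was 235 CPM in humdG, and the log2 ratio was 1.28 (interval 0.98 to 1.58). In cells below 5000 UMIs it was 93.2 CPM in humWT and 143 CPM in humdG, a log2 ratio of 0.62 (interval 0.05 to 1.14). Thinned to 1000 UMIs, 8.49% of 1213 humWT cells and 11.3% of 106 humdG cells had a Sema3e UMI (unthinned, 21.4% and 39.6%). The intervals of the thinned shares, 6.98% to 10.2% and 5.99% to 18.9%, overlapped. The CPM of Sema3e was higher in humdG in both depth ranges that held cells of both libraries, by amounts that differed.

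The class also differed between libraries in its own markers, in directions that changed with depth. Col2a1 and Acan, which encode cartilage matrix proteins, were higher in humdG over the whole class, at 1020 and 1385 CPM and at 229 and 313 CPM. In cells below 5000 UMIs both were lower in humdG, at 987 and 225 CPM and at 225 and 47.6 CPM, and so they were in cells of 5000 to 30000 UMIs, at 1298 and 885 CPM and at 257 and 122 CPM. Col9a1, a cartilage collagen gene, was 332 and 328 CPM over the whole class. It was lower in humdG below 5000 UMIs, at 332 and 125 CPM, and at 5000 to 30000 UMIs, at 329 and 176 CPM. Sox9, the transcription factor gene of cartilage, was higher in humdG over the whole class, at 734 and 1286 CPM. It was 732 and 571 CPM in cells below 5000 UMIs, and 752 and 1277 CPM in those of 5000 to 30000 UMIs. Matn1, another cartilage matrix gene, had 44 UMIs in humWT and 0 in humdG over the whole class. In the cartilage-like class 26.8% of 12008 genes were 2-fold apart or more, and the median log2 ratio of all genes was 0.55. Whether the cells compared there are the same kind of cell was not tested.

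**Figure D3:**
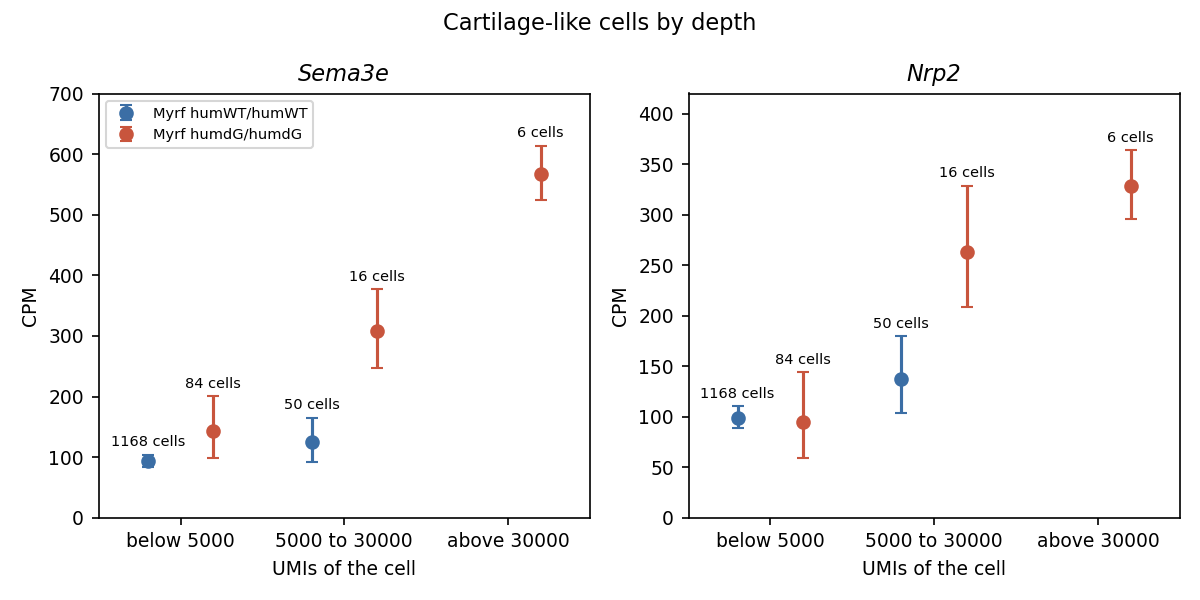
CPM of Sema3e (left) and Nrp2 (right) in cartilage-like cells by the number of UMIs of the cell, with 95% Poisson intervals and the number of cells. Sema3e goes from 143 CPM in the 84 shallow humdG cells to 567 CPM in the 6 deepest, and there is no humWT point above 30000 UMIs.

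In the class where each was highest, the 10 guidance genes had a median log2 ratio of -0.02, with 5 genes higher and 5 lower in humdG, and 1 of the 10, Sema3e, was 2-fold apart or more. The share of all genes with at least 20 UMIs that was 2-fold apart in these classes was 9.61% in amacrine and horizontal-like cells, 7.32% in blood vessel endothelium-like cells, 5.72% in mesenchyme-like cells, 6.17% in neurogenic-like cells, 7.14% in photoreceptor precursor-like cells and 7.07% in surface epithelium-like cells, besides the 26.8% in cartilage-like cells. A count of 1 in 10 was near these shares and says nothing particular about the 10 genes. For 6 of the 10, Sema3e, Robo2, Ntn1, Nrp2, Plxna2 and Dcc, the interval of the log2 ratio left out 0. The same count was not made for all genes, so it too says nothing particular about the 10 genes. These intervals also take no account of differences between embryos or preparations.

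**Figure D4:**
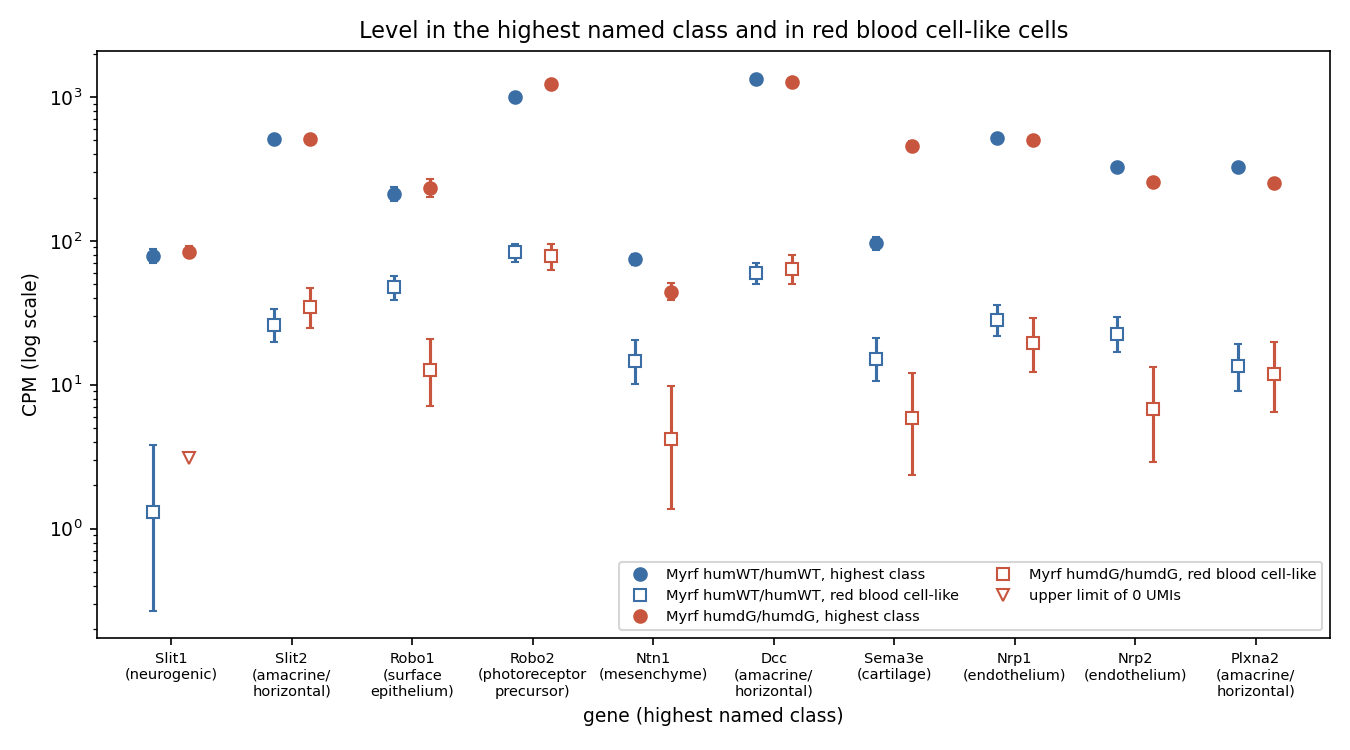
CPM on a log scale of each gene in its highest named class (filled circles) and in red blood cell-like cells (open squares), in humWT (blue) and humdG (red), with 95% Poisson intervals; the triangle is the upper limit for 0 Slit1 UMIs. Filled circles of both libraries lie close together except for Sema3e and Ntn1, while the red blood cell-like levels of Robo1, Ntn1, Nrp2 and Sema3e lie lower in humdG.

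Levels were also compared outside the highest class. In amacrine and horizontal-like cells, Ntn1 was 18.7 CPM in humWT and 2.99 CPM in humdG, Nrp1 69.6 and 28.9 CPM, and Nrp2 33.5 and 9.37 CPM. These 3 of the 10 genes were 2-fold lower or more in humdG, where 7.51% of all genes were. Such counts were not particular to this class. In RPE-like cells Ntn1, Nrp2 and Sema3e were as low, 3 of 10, where 5.75% of all genes were. Slit1, with only 4 humWT and 16 humdG UMIs there, was 2-fold higher or more, as were 2.94% of all genes. Among the other named classes the count of lower genes was smallest in mesenchyme-like cells, 0 of 10, where 2.60% of all genes were as low. It was largest in tendon-like cells, 8 of 10, where 19.0% were. In red blood cell-like cells the genes 2-fold lower or more were Robo1, at 47.6 and 12.6 CPM, Ntn1, at 14.7 and 4.21 CPM, Nrp2, at 22.5 and 6.73 CPM, and Sema3e, at 15.2 and 5.89 CPM. They were 4 of the 9 genes with at least 20 UMIs there, where 14.2% of all genes were as low. Free RNA of Robo2 and Dcc, at 83.1 and 78.3 CPM and at 59.7 and 64.0 CPM, did not differ beyond counting error.

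Directions were also counted over named classes with at least 20 UMIs, with the highest class but without red blood cell-like cells. Ntn1 was lower in humdG in 13 of 13, Nrp2 in 14 of 15, Nrp1, Robo1 and Plxna2 in 13 of 15 each, and Sema3e in 11 of 13. Robo2, Slit2 and Dcc were lower in 4, 6 and 6 of 15 classes, and Slit1 in 4 of 10. The 15 classes are parts of the same 2 libraries and not replicates, and such counts were not made for all genes. Mesenchyme markers were lower in humdG beside them: in amacrine and horizontal-like cells all 10 were lower in humdG, with sums of 2458 CPM in humWT and 652 CPM in humdG, and none was at 0 in either library. The part of free RNA in these differences was not tested.

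**Figure D5:**
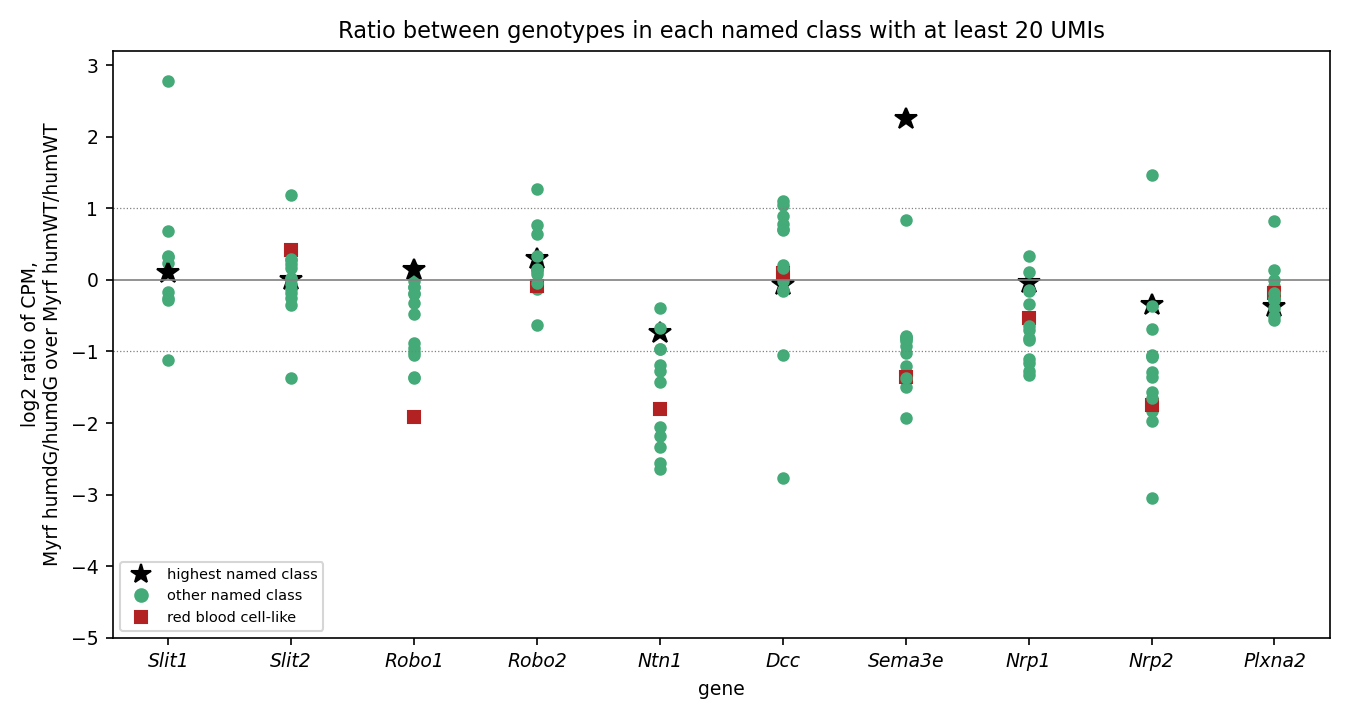
Log2 ratio of humdG to humWT of each gene in every named class with at least 20 UMIs (points), with its highest class as a star and red blood cell-like cells as a square. Points of Ntn1, Nrp2 and Sema3e lie mainly below 0, as do their squares, while the stars lie near 0 except those of Sema3e, at 2.25, and Ntn1, at -0.75.

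Several unnamed clusters held these genes too. The cluster led by Ntng2 and Cngb3, with 140 humWT and 168 humdG cells, had 1095 and 1782 CPM of Robo2, 814 and 1397 CPM of Dcc, 347 and 490 CPM of Slit2 and 14.9 and 43.4 CPM of Slit1. Its 45 humdG cells above 30000 UMIs held 74.5% of its humdG UMIs, against 13 cells and 25.3% in humWT, so its sums compare cells of unlike depth. The cluster led by Tafa1 and Hs3st4, with 598 and 836 cells, held 699 and 639 CPM of Robo2, but 78.4 and 65.8 CPM of Slit2. In the Wif1 cluster, Dcc was 577 CPM in humWT and 230 CPM in humdG, and Robo2 582 and 218 CPM. A single cell gave 21.8% of the humdG Dcc UMIs and 26.7% of the humdG Robo2 UMIs. Tendon-like cells, 241 in humWT and 57 in humdG, held 150 and 21.9 CPM of Dcc and 421 and 272 CPM of Robo2. Cells above 30000 UMIs were 39 in humWT, with 48.4% of the UMIs of that class, and 3 in humdG. The class joins a pair of clusters, and the smaller, with 95 humWT but 4 humdG cells, gave 865 of the 944 humWT Dcc UMIs and 1561 of the 2650 humWT Robo2 UMIs. In the larger, with 146 and 53 cells, Dcc was 20.1 and 19.2 CPM and Robo2 277 and 243 CPM, with log2 ratio intervals that included 0.

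No cluster met the rule for retinal ganglion cell-like cells, the cells whose axons form the optic nerve. The largest cluster, of 2891 humWT and 6790 humdG cells with a median of 2236 and 1635 UMIs, was led by Sncg, Gphn and Cdk8. The rest of its 10 leading genes were AY036118, Lars2, Gm42418, Ina, Gm19951, Crmp1 and Pou4f1. Sncg and Pou4f1 are retinal ganglion cell genes, but the cluster did not meet the naming rule. Sncg had a UMI in 5.19% and 14.7% of its cells, and Col1a1, a connective tissue gene, in 97.3% and 74.0%. In this cluster Robo2 was 182 and 288 CPM, Dcc 139 and 211 CPM, Slit2 64.6 and 93.1 CPM, Plxna2 47.1 and 56.0 CPM, and Slit1 5.86 and 10.2 CPM, all higher in humdG. Robo1, at 107 and 73.8 CPM, Nrp1, at 65.2 and 41.8 CPM, Nrp2, at 43.8 and 19.1 CPM, Sema3e, at 31.4 and 16.4 CPM, and Ntn1, at 29.9 and 10.3 CPM, were lower. The retinal ganglion cell markers Sncg, at 28.6 and 119 CPM, and Isl1, at 11.4 and 59.5 CPM, were higher in humdG beside them. So was Pax6, at 116 and 287 CPM, while Col1a1, at 1966 and 896 CPM, was lower. Their part in the differences was not tested. A gate of at least 3 of 10 retinal ganglion cell markers, with no UMI of Tfap2a, Tfap2b or Crx, took 115 humWT and 332 humdG cells from 25 and 31 clusters, in which Col1a1 was 8240 and 2513 CPM. That gate therefore held other cell types. Kept to the Sncg and Rasgef1b clusters, a choice made after the data were seen, it left 29 and 166 cells, which still held 935 and 449 CPM of Col1a1, with a UMI in 96.6% and 74.7% of them.

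In these gated cells Robo2 was 477 CPM (77 UMIs, interval 376 to 596) in humWT and 554 CPM (316 UMIs, interval 494 to 618) in humdG, and Dcc 551 CPM (89 UMIs, interval 443 to 678) and 424 CPM (242 UMIs, interval 372 to 481). Both receptors stood well above the red blood cell-like level. Nrp1 was 118 CPM (19 UMIs) and 154 CPM (88 UMIs), and Slit2 136 CPM (22 UMIs) and 121 CPM (69 UMIs), with overlapping intervals. Slit1 had 6 and 17 UMIs, Robo1 6 and 26, Plxna2 5 and 25, and Ntn1 had 4 and 6, too few to compare. Nrp2, at 74.3 CPM (12 UMIs) in humWT and 12.3 CPM (7 UMIs) in humdG, stayed below the minimum of 20 UMIs set for a fold. In red blood cell-like cells it was lower in humdG as well, at 22.5 and 6.73 CPM. The split of the gated cells between the Sncg and Rasgef1b clusters was not counted. Sema3e was 124 CPM (20 UMIs) in humWT and 45.6 CPM (26 UMIs) in humdG.

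The rest of the guidance machinery was covered by a list of 80 genes, of which 79 were matched in the files. Their highest named classes were amacrine and horizontal-like cells for 17 genes, blood vessel endothelium-like cells for 14 and surface epithelium-like cells for 9, and 56 of the 79 had the same highest class in both libraries. In the comparison planned for retinal ganglion cell-like cells and made in amacrine and horizontal-like cells instead, 8 of 74 measured genes were 2-fold apart or more. That is close to the 9.61% of all genes. The median log2 ratio of the 74 was -0.28, against 0.00 for all genes. In red blood cell-like cells the median of the 43 measured pathway genes was -0.57, against -0.04 for all genes. The part of free RNA in the lower median was not tested. With only cells of at least 5000 UMIs the count was 15 of 73, where 9.64% of all genes were 2-fold apart, and with a minimum of 100 UMIs it was 5 of 61, where 4.38% were.

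The genes 2-fold lower or more in humdG were Slit3, Robo3, Unc5b, Unc5c, Sema3c, Ephb4 and Chl1, and the gene 2-fold higher was Cntn2. Slit3, the third Slit ligand, was 41.0 CPM in humWT and 10.2 CPM in humdG, and 28.1 and 4.21 CPM in red blood cell-like cells. Sema3c, a secreted semaphorin, was 44.6 and 9.91 CPM, and 51.5 and 8.42 CPM in red blood cell-like cells. In this class both were below 3 times the red blood cell-like level. Unc5c, a repulsive netrin receptor, was further above it, at 339 CPM (1399 UMIs) and 154 CPM (1133 UMIs), a log2 ratio of -1.14 (interval -1.26 to -1.03). Robo3, a divergent Robo receptor, was 13.1 and 6.38 CPM from 54 and 47 UMIs. Cntn2, a cell adhesion molecule of axons, was 11.9 and 31.5 CPM, and 1.73 and 12.6 CPM in red blood cell-like cells.

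Epha6 and Flrt2, which encode an ephrin receptor and a transmembrane guidance protein, were next lowest, each with a log2 ratio of -0.98. At the upper end Draxin, a secreted antagonist of netrin signalling, was 47.1 and 74.4 CPM (log2 ratio 0.66, interval 0.42 to 0.90), Efnb2 was higher in humdG with a log2 ratio of 0.43 (interval 0.20 to 0.67), Efna2 was 27.2 and 33.7 CPM, Plxna3 17.9 and 21.6 CPM, and Ntng2 8.49 and 10.2 CPM. The intervals of the last 3 included 0.

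The partners of the 10 genes are given in their highest named class, taken from the mean of both libraries. Plxnd1, the receptor of Sema3e, was highest in blood vessel endothelium-like cells, with 359 CPM in humWT and 389 CPM in humdG, as were the VEGF receptor Kdr, with 625 and 743 CPM, Sema6a, with 326 and 292 CPM, and Efnb2, with 184 and 191 CPM. These genes shared their highest class with Nrp1. Vegfa was highest in RPE-like cells, with 244 and 241 CPM, as was Ntn4, with 35.0 and 46.8 CPM, and Sema3c, with 417 and 211 CPM. In humWT alone Ntn4 was highest in amacrine and horizontal-like cells, and in humdG alone Sema3c and Sema6a were highest in cartilage-like cells. Dscam, another netrin receptor, was highest in amacrine and horizontal-like cells, with 240 and 206 CPM.

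Several partners were highest in cartilage-like cells, the class with the 6 deep humdG cells. There Unc5c was 190 and 655 CPM, Neo1, a netrin receptor related to Dcc, 165 and 343 CPM, Sema3a 135 and 270 CPM, and Slit3 102 and 299 CPM. In humWT alone, only Slit3 of these was highest in that class. Unc5c was highest there in amacrine and horizontal-like cells, Neo1 in mesenchyme-like cells and Sema3a in tendon-like cells. Plxna4, a semaphorin receptor, and L1cam, an axonal adhesion molecule, were highest in neural crest and glia-like cells, with 172 and 104 CPM and with 64.1 and 56.1 CPM from 50 and 40 cells. Plxna1 was highest in the RPE or melanocyte-like cluster, with 57.2 and 61.5 CPM, Sema3f in surface epithelium-like cells, with 93.1 and 89.6 CPM, and Ephb1 in retinal progenitor-like cells, with 123 and 121 CPM.

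Genes whose levels most closely followed those of 9 of the members were found by Pearson's r of log2(CPM + 10) over 45 sums of 23 classes and unnamed clusters in the 2 libraries. The 45 points share libraries and depth, so r is a description. Slit1 was followed by Tfap2d (r = 0.93), Asic4 and Nkain1, and Slit2 by Astn2 (r = 0.95), Mapk10 and Celf4. Robo2 was followed by 4930447C04Rik (r = 0.92), Macrod2 and Grip1, Robo1 by Rbfox2 (r = 0.88), Rnf217 and Tmem65, and Plxna2 by Rbfox1 (r = 0.86) and Apc. Outside the retina, Ntn1 was followed by Smoc2 (r = 0.94), Myof and Osr2, Nrp1 by BC028528 (r = 0.88), Pear1 and Disc1, Nrp2 by Shfl (r = 0.90), Rgs7bp and Hmcn1, and Sema3e by Adamts20 (r = 0.90), Fzd9 and Slc41a2.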

How the data were processed

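Eye cups pooled by genotype (3 per the labels, both eyes of each of 3 mice per the study's methods) gave 1 library each (10x 3′ chemistry). The deposited matrices hold UMI counts per gene and cell, made by the authors with Cell Ranger 7.1.0 on mm10, and Seurat 4.1.1 is also named in the submitters' processing notes; whether introns were counted is not given in the sources used here. Library totals were 129135207 (humWT) and 114319529 (humdG) UMIs.

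Cells needed more than 500 genes and less than 15% of UMIs from mitochondrial genes. Scrublet (30 components, simulation ratio 2) marked 1 and 0 cells as doublets, so the top 5% by score were taken out (889 and 989). Libraries were integrated in Seurat 5.3.0 (2000 variable genes less 38 guidance genes, 20 dimensions, 30 components, resolution 1). A cluster was named when at least 3 markers of a list were raised 2-fold (10 CPM added) in at least 10% of its cells, with 1 of them among its 20 leading genes; equal lists gave a joint name. UMIs were summed by class and library. Intervals are exact: Poisson for sums, conditional binomial for ratios, Clopper-Pearson for shares. A difference was counted from 2-fold upward, for genes with at least 20 UMIs. The method was tested on simulated Poisson counts only, which hold no spread between cells, so the test cannot show how the intervals hold for these data. Gene positions are from GENCODE M21 on GRCm38.

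Named were the 10 genes, for each the 3 most correlated genes (at least 200 UMIs), 20 fixed partners, and the 6 highest and 6 lowest ratios among pathway genes with at least 100 UMIs. No retinal ganglion cell-like class was found, so amacrine and horizontal-like cells took its place in the planned pathway comparison, which was decided once the data had been seen. Genes and lists were chosen with earlier results of these data known. Python 3.11.15, scanpy 1.11.5, scipy 1.17.1 and R 4.3.3 were used. Some of the genes that the rule on similar patterns named, among them those for Dcc, are not reported here.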

Additional observations from a re-analysis of the deposited data

How the results depend on the processing

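Over 12 alternative settings, the log2 ratio in the highest class ranged from 0.20 to 0.40 for Robo2, from -0.15 to -0.07 for Dcc, from -0.78 to -0.57 for Ntn1, from -0.37 to -0.30 for Nrp2 and from -0.44 to -0.37 for Plxna2. Those of Slit1 (-0.09 to 0.13), Slit2 (-0.04 to 0.01) and Robo1 (-0.08 to 0.39) took both signs. Sema3e stayed 2-fold apart or more in each of 11 settings, from 1.28 without cells above 30000 UMIs to 2.62 with libraries merged without integration, and was 1.70 when centred on the median of all genes. With cells of at least 5000 UMIs, the cartilage-like class had too few humdG cells, which left 9 genes of which 0 were 2-fold apart, and the pathway count was 15 in place of 8. With a minimum of 100 UMIs it was 5. The number of genes with the same highest class was 7 to 10. Of 218 levels under these settings, 63 moved beyond their counting interval, among them Ntn1 in mesenchyme-like cells, from 74.4 to 50.1 CPM in humWT without doublet removal; the cause was not tested. No setting gave a retinal ganglion cell-like class, so the planned marker gate had no class to replace, and no cluster was shallow enough for the low-depth alternative to change a value. No paired analysis was possible because each genotype had 1 library, and no library could be left out.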
